A study of Homo sapiens with 6 samples.

Results

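The 58 genes described here are those of mitosis, of the spindle and of cell division in HepG2, a human hepatocellular carcinoma line. They were taken by symbol from a list of G2/M cyclins and kinases, checkpoint, kinetochore, spindle, chromosome passenger, condensin and cohesion genes, and all 58 were found among the 60240 genes of the deposited table. The cultures compared were 3 treated for 24 h with 100 ng/ml recombinant GDF11, a secreted ligand of the TGF-beta family, and 3 control cultures, which the labels call biological replicates. Both groups are the same line, and the labels name no genetic change and no carrier added to the controls. Total RNA was sequenced as 75-base single reads, with a depth estimated at 47900000 to 53400000 reads for each library. Values are variance-stabilised log2 values on which a gene without reads stands at 5.52, and the 3 values of a group are always given as replicates 1, 2 and 3. RNA integrity numbers (RIN) were 9.6, 9.5 and 9.4 with GDF11 and 9.8, 9.9 and 9.6 in controls.

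At the end of G2, cyclin B with the kinase CDK1 drives the cell into mitosis, and CDC25 phosphatases switch that kinase on. Aurora and Polo-like kinases then build the spindle, kinetochores tie chromosomes to it, and a checkpoint holds the cell until all are attached. The anaphase-promoting complex ends mitosis by marking cyclin B and securin for destruction, and a ring of actin and myosin divides the cell. Most of these genes are transcribed in one wave in G2, through the MuvB, B-Myb and FOXM1 complexes at a promoter element called the CHR (cell cycle genes homology region) and at CCAAT boxes bound by NF-Y, and are repressed in resting cells by the DREAM complex. In epithelial and liver cells, ligands of the TGF-beta family are known to slow the cycle, mostly in G1.

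The promoter element named above is shown for 6 genes that fell and hold it shortly before a transcription start. They were taken in order of the size of the fall among called genes with the element within the last 60 bases. Being chosen by their falls, they do not show how the element and the calls go together, which is given further below. The stretches are the 120 bases before the start, from the RefSeq promoter table on GRCh38.p14, written in the direction of transcription. Capitals mark matches to the CHR letters (TTTGAA or TTCGAA), to CCAAT and to an E2F site (TTTCCCGC or TTTGGCGC or TTTGGCGG or TTTCCCGG), on either strand.
PLK1, chr16:23678769-23678888, plus strand: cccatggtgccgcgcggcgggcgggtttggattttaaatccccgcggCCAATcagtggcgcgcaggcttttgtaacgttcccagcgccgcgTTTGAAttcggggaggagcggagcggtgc
CDCA5, chr11:65084041-65084160, minus strand: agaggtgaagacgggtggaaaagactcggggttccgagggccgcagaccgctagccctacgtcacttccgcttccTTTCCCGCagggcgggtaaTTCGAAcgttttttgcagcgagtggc
CDC25B, chr20:3796190-3796309, plus strand: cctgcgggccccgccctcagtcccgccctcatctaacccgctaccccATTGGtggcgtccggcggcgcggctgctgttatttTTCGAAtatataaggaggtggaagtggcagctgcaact
CDCA8, chr1:37692396-37692515, plus strand: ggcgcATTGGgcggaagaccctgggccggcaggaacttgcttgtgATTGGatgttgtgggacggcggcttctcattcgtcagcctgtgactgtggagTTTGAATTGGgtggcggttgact
CDC25C, chr5:138331805-138331924, minus strand: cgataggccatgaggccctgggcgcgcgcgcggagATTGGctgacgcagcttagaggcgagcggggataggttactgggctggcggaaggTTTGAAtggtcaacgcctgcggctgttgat
CENPA, chr2:26785936-26786055, plus strand: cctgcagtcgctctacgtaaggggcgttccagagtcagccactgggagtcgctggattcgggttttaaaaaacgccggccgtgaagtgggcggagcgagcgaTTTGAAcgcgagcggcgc
CDCA7, the gene with the largest decrease of the 58, is shown for contrast: it has no CHR letters in its window and a match to the E2F letters 65 bases before the start.
CDCA7, chr2:173354752-173354871, plus strand: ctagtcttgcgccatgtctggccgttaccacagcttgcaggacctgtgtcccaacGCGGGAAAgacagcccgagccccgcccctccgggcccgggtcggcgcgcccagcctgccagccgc
The CHR letters begin 29 bases before the start in PLK1, 26 in CDCA5, 38 in CDC25B, 23 in CDCA8, 30 in CDC25C and 18 in CENPA. In CDCA8 they overlap a CCAAT match on the other strand. Of the 58 genes, 48 had an entry in the table, with 61 windows that reach from 250 bases before to 50 bases after a start. CHR letters were in 40 of the 61 windows (65.6%), against 16.4% of all 35116 windows of the table. They began within the last 60 bases before the start in 39.3% of the windows of the mitotic genes, against 3.2% of all windows. CCAAT was in 68.9% of their windows and 34.6% of all, and the E2F letters in 9.8% and 4.3%. In 46 windows of S-phase genes the picture was another, with CHR letters in 6.5%, CCAAT in 56.5% and E2F letters in 47.8%. These are matches of letters and not sites shown to be bound. No test was made of these shares, and genes were listed here for a shared role in mitosis, for which such promoters are known.

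The RNA of most of these mitotic genes was lower with GDF11. Of the 58 genes, 38 fell and 0 rose (limma, Benjamini-Hochberg adjusted p under 0.05 over 18723 tested genes), and 20 were not called. No gene of the 58 was higher at an unadjusted p under 0.05 either (0 genes). Over all tested genes 10.8% were called lower and 11.7% higher. The median log2 difference was -0.68 for the 58 and 0.01 for all tested genes. All 58 differences were negative, with a range of -1.41 for CDCA7 to -0.11 for PLK4, though PLK4, CENPE, CDC20 and ECT2, none of them called, turned positive under another setting. In 47 of the 58, every GDF11 value lay below every control value, which held for 19.6% of all tested genes, and in the other 11 the groups overlapped. On back-transformed, depth-normalised reads, the GDF11 mean was 0.346 to 0.895 times the control mean, with a median of 0.602, and it was at or below 0.5 in 14 genes. Leaving out control replicate 1 or 2 left 24 and 34 genes called lower, and leaving out GDF11 replicate 1, 2 or 3 left 26, 23 and 24. In each of these fits fewer of all tested genes were called too, counting higher and lower together. The loss of calls was therefore not particular to the 58, and the share of all tested genes called lower in these fits is not given here. The median of the 58 stayed between -0.63 and -0.73 over the 6 fits without 1 library. Without control replicate 3, 41 of the 58 were called lower, where 21.3% of all tested genes were lower. The mean RIN was lower with GDF11, and with RIN as a covariate 22 of the 58 were lower and 0 higher, against 3.85% of all tested genes lower. The groups met in RIN only at 9.6, in GDF11 replicate 1 and control replicate 3. Treatment and RIN can therefore hardly be told apart, and a call kept or lost under this covariate does not separate them. Fewer cells in G2 and mitosis and less of these RNAs in each such cell cannot be told apart in bulk RNA.

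**Figure D1:**
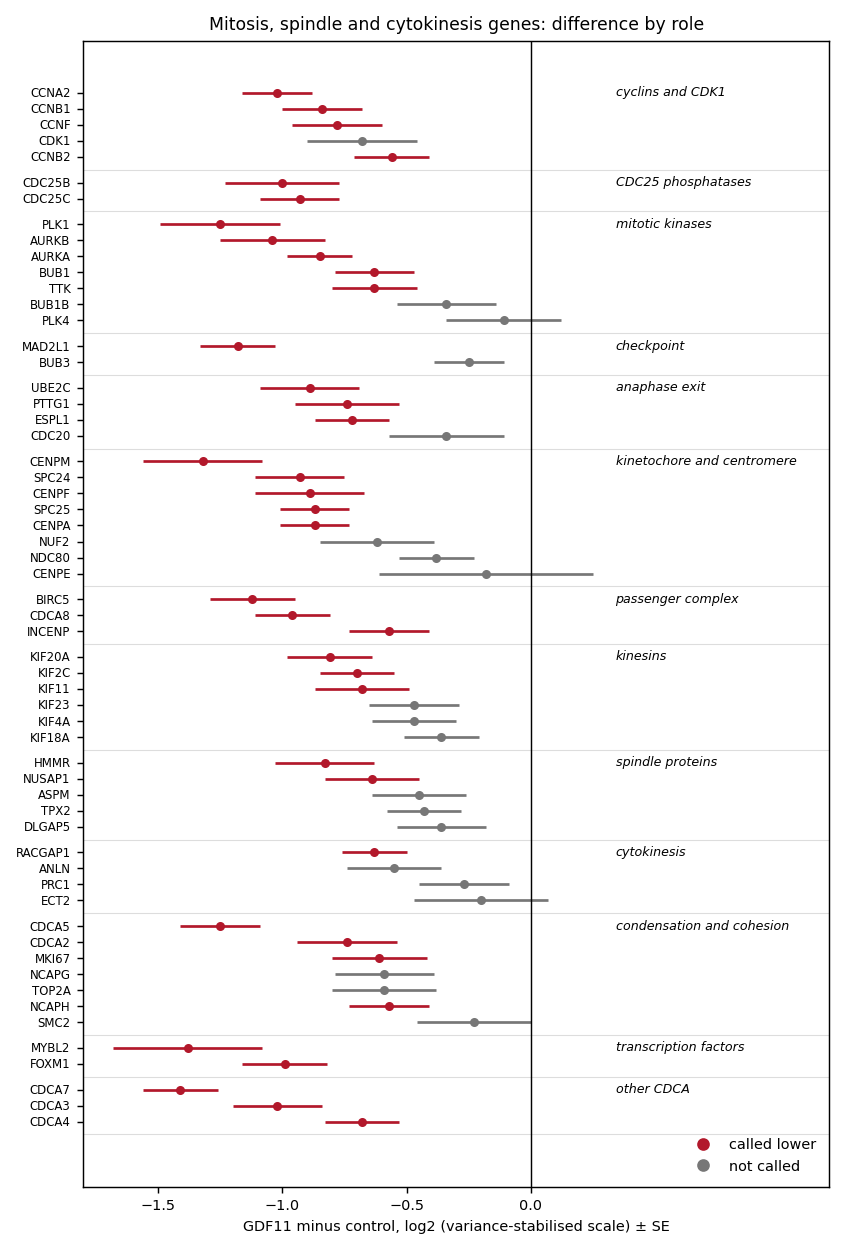
Log2 difference of GDF11 minus control (x axis, variance-stabilised scale) for each of the 58 genes (y axis), grouped by role; points are differences and bars limma's standard errors, 3 libraries a group, red where called lower and grey where not called. All 58 points lie left of 0, and 38 are called lower.

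The cyclins and their kinase come first. Cyclin A2, encoded by CCNA2 (chromosome 4, 121816444 to 121823883 of GRCh38.p14), acts in S phase and G2, and its values were 11.54, 11.46 and 11.63 with GDF11, against 12.62, 12.43 and 12.63 in controls. Every GDF11 value lay well below every control value, and CCNA2 fell by 1.02 ± 0.14 on the log2 scale (difference ± SE, n = 3 each, adjusted p = 0.00133), to 0.486 times the control mean on reads. Of the mitotic B cyclins, CCNB1 (chromosome 5, 69167150 to 69178245) stood at 12.73, 12.75 and 12.53 with GDF11, against 13.63, 13.60 and 13.29 in controls, and CCNB2 at 11.49, 11.46 and 11.22 with GDF11, against 11.89, 12.05 and 11.91 in controls. Both lay lower in every GDF11 library, and CCNB1 fell by 0.84 ± 0.16 (adjusted p = 0.00663) and CCNB2 fell by 0.56 ± 0.15 (adjusted p = 0.0258). CCNF, which encodes the F-box protein cyclin F of a ubiquitin ligase, read 11.30, 11.24 and 11.05 with GDF11, against 11.96, 12.25 and 11.70 in controls and fell by 0.78 ± 0.18 (adjusted p = 0.0142). CDK1 itself, the kinase that binds these cyclins, had 9.78, 9.61 and 10.27 with GDF11, against 10.76, 10.19 and 10.74 in controls. GDF11 replicate 3 lay above control replicate 2, so that the groups overlapped, and CDK1 was not called (-0.68 ± 0.22, adjusted p = 0.06). The activating phosphatases of CDK1 both decreased. CDC25C stood at 10.24, 10.25 and 10.05 with GDF11, against 11.12, 11.32 and 10.89 in controls, and CDC25B at 11.97, 12.07 and 11.66 with GDF11, against 13.10, 13.20 and 12.40 in controls. Control replicate 3 was the lowest control in both, though above every GDF11 library, and CDC25C fell by 0.93 ± 0.16 (adjusted p = 0.00406) and CDC25B fell by 1.0 ± 0.23 (adjusted p = 0.0147). CCNB2 (-0.61) lost the call after removal of GDF11 replicate 1, CCNB2 (-0.59) after removal of GDF11 replicate 2, CCNB2 (-0.47), CCNF (-0.70) and CDC25B (-0.88) after removal of GDF11 replicate 3, CCNB2 (-0.59), CCNF (-0.78) and CDC25B (-0.90) after removal of control replicate 1 and CCNB2 (-0.51) and CDC25B (-0.85) after removal of control replicate 2. CDK1 (-0.87) gained a call after removal of GDF11 replicate 3 and CDK1 (-0.86) after removal of control replicate 2. CCNB1 (-0.54, adjusted p = 0.093), CCNB2 (-0.38, adjusted p = 0.243), CCNF (-0.34, adjusted p = 0.26), CDC25B (-0.36, adjusted p = 0.345) and CDC25C (-0.59, adjusted p = 0.0723) were not called under the RIN covariate. CDK1 (-1.16, adjusted p = 0.0354) was called under it.

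Among the mitotic kinases, 5 of 7 fell. Polo-like kinase PLK1 (chromosome 16, 23678889 to 23690367), which acts at centrosomes, kinetochores and the cleavage site, stood at 12.45, 12.53 and 12.14 with GDF11, against 13.89, 13.90 and 13.09 in controls. Control replicate 3 lay between the GDF11 libraries and the other controls, and the gene fell by 1.25 ± 0.24 (adjusted p = 0.00636). AURKA, the kinase of centrosomes and spindle poles, had 12.42, 12.36 and 12.37 with GDF11, against 13.24, 13.20 and 13.25 in controls. Its replicates lay close together in both groups, and it fell by 0.85 ± 0.13 (adjusted p = 0.00254), to 0.552 times the control on reads. AURKB, the kinase of the chromosome passenger complex, read 11.29, 11.15 and 11.10 with GDF11, against 12.48, 12.42 and 11.75 in controls and fell by 1.04 ± 0.21 (adjusted p = 0.00796), again with control replicate 3 nearest the GDF11 libraries. The next kinases serve the spindle checkpoint. BUB1 gave 11.49, 11.46 and 11.44 with GDF11, against 12.23, 11.84 and 12.21 in controls and fell by 0.63 ± 0.16 (adjusted p = 0.0206). TTK, also called MPS1, gave 9.44, 9.37 and 9.51 with GDF11, against 9.81, 10.04 and 10.36 in controls and fell by 0.63 ± 0.17 (adjusted p = 0.03). For BUB1B, which encodes BUBR1, the values were 11.06, 10.78 and 11.24 with GDF11, against 11.23, 11.15 and 11.72 in controls. Its GDF11 replicate 3 lay above control replicates 1 and 2, and it was not called (-0.34 ± 0.20, adjusted p = 0.245). PLK4, which starts centriole duplication, overlapped between the groups as well, at 8.86, 8.83 and 9.26 with GDF11, against 8.66, 9.08 and 9.53 in controls (-0.11 ± 0.23, adjusted p = 0.775). Without control replicate 3 the difference of PLK4 was 0.11. BUB1 (-0.64) and TTK (-0.63) lost the call after removal of GDF11 replicate 1, BUB1 (-0.63) and TTK (-0.60) after removal of GDF11 replicate 2, BUB1 (-0.62) and TTK (-0.66) after removal of GDF11 replicate 3, BUB1 (-0.56) after removal of control replicate 1 and TTK (-0.64) after removal of control replicate 2. AURKB (-0.51, adjusted p = 0.182) and PLK1 (-0.59, adjusted p = 0.14) were not called under the RIN covariate.

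The checkpoint genes that encode no kinase had unlike results. MAD2L1, which encodes the MAD2 protein that holds CDC20 back, stood at 10.48, 10.54 and 10.60 with GDF11, against 11.96, 11.61 and 11.59 in controls, without overlap, and fell by 1.18 ± 0.15 (adjusted p = 0.00094). BUB3, the partner of BUB1 and BUBR1, stood at 12.35, 12.44 and 12.33 with GDF11, against 12.73, 12.65 and 12.49 in controls and was not called (-0.25 ± 0.14, adjusted p = 0.229), although every GDF11 value was below every control value. Of the genes that act at the exit from mitosis, UBE2C, the ubiquitin-conjugating enzyme of the anaphase-promoting complex, read 10.07, 9.91 and 9.79 with GDF11, against 10.89, 11.12 and 10.42 in controls and fell by 0.89 ± 0.20 (adjusted p = 0.0131). PTTG1, for securin, read 11.76, 11.91 and 11.63 with GDF11, against 12.67, 12.78 and 12.07 in controls, and ESPL1, for the protease separase that securin inhibits, read 10.37, 10.42 and 10.15 with GDF11, against 11.00, 11.21 and 10.90 in controls. Both were lower with GDF11 in every library: PTTG1 fell by 0.74 ± 0.21 (adjusted p = 0.0317) and ESPL1 fell by 0.72 ± 0.15 (adjusted p = 0.011). CDC20, the activator of the complex in anaphase, behaved otherwise, at 12.64, 12.74 and 12.39 with GDF11, against 13.21, 13.17 and 12.41 in controls. Its control replicate 3 lay among the GDF11 libraries, and CDC20 was not called (-0.34 ± 0.23, adjusted p = 0.308). Without that library it was, at -0.60. PTTG1 (-0.74) lost the call after removal of GDF11 replicate 1, PTTG1 (-0.81) after removal of GDF11 replicate 2, UBE2C (-0.82), PTTG1 (-0.67) and ESPL1 (-0.64) after removal of GDF11 replicate 3, UBE2C (-0.85) and PTTG1 (-0.66) after removal of control replicate 1 and PTTG1 (-0.61) after removal of control replicate 2. BUB3 (-0.32) and CDC20 (-0.60) gained a call after removal of control replicate 3. UBE2C (-0.34, adjusted p = 0.286), PTTG1 (-0.23, adjusted p = 0.571) and ESPL1 (-0.46, adjusted p = 0.168) were not called under the RIN covariate.

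At the kinetochore, 5 of 8 genes fell. CENPM, a protein of the inner kinetochore, had 9.58, 9.62 and 9.38 with GDF11, against 11.10, 11.15 and 10.28 in controls, with control replicate 3 below the other controls, and fell by 1.32 ± 0.24 (adjusted p = 0.00485), to 0.359 times the control on reads. SPC25 and SPC24 form the chromosome-facing end of the NDC80 complex that grips microtubules. SPC25 stood at 9.65, 9.50 and 9.56 with GDF11, against 10.48, 10.42 and 10.42 in controls and fell by 0.87 ± 0.14 (adjusted p = 0.0024), and SPC24 at 9.69, 9.32 and 9.42 with GDF11, against 10.52, 10.55 and 10.14 in controls, with a decrease of 0.93 ± 0.18 (adjusted p = 0.00634). The other subunits of that complex had smaller differences and were not called: NUF2 (-0.62 ± 0.23, adjusted p = 0.0841) and NDC80 (-0.38 ± 0.15, adjusted p = 0.0966), both with every GDF11 value below every control value. CENPA, the histone variant that marks the centromere, had 9.34, 9.38 and 9.39 with GDF11, against 10.23, 10.35 and 10.14 in controls and fell by 0.87 ± 0.14 (adjusted p = 0.00268). CENPF, a large protein of the outer kinetochore, fell by 0.89 ± 0.22 (adjusted p = 0.0197), and GDF11 replicate 1, at 11.23, lay nearer the controls (11.51 to 11.68) than replicates 2 and 3 (10.44 and 10.50). CENPE, a kinetochore motor, ranged from 8.35 to 8.97 with GDF11 and from 8.05 to 9.94 in controls, where control replicate 3 was highest. It was not called (-0.18 ± 0.43, adjusted p = 0.794), and without control replicate 3 its difference was 0.39. CENPF (-0.74) lost the call after removal of GDF11 replicate 2, CENPF (-0.77) after removal of GDF11 replicate 3, CENPF (-0.87) after removal of control replicate 1 and CENPF (-0.85) after removal of control replicate 2. NUF2 (-0.83) gained a call after removal of control replicate 2. SPC24 (-0.54, adjusted p = 0.136), CENPF (-0.49, adjusted p = 0.354) and CENPM (-0.66, adjusted p = 0.12) were not called under the RIN covariate. NUF2 (-1.13, adjusted p = 0.0399) was called under it.

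All 3 genes of the chromosome passenger complex beside AURKB fell. BIRC5, which encodes survivin, stood at 12.41, 12.39 and 12.24 with GDF11, against 13.46, 13.72 and 13.20 in controls and fell by 1.12 ± 0.17 (adjusted p = 0.00207), to 0.453 times the control on reads. CDCA8, for borealin, stood at 10.74, 10.56 and 10.56 with GDF11, against 11.49, 11.77 and 11.49 in controls and fell by 0.96 ± 0.15 (adjusted p = 0.00232). INCENP, the scaffold that carries the kinase, had 10.37, 10.23 and 10.37 with GDF11, against 10.73, 10.82 and 11.13 in controls and fell by 0.57 ± 0.16 (adjusted p = 0.0306). In INCENP control replicate 3 was the highest of the controls, and in BIRC5 the lowest. INCENP (-0.60) lost the call after removal of GDF11 replicate 1, INCENP (-0.52) after removal of GDF11 replicate 2, INCENP (-0.60) after removal of GDF11 replicate 3 and INCENP (-0.61) after removal of control replicate 2.

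**Figure D2:**
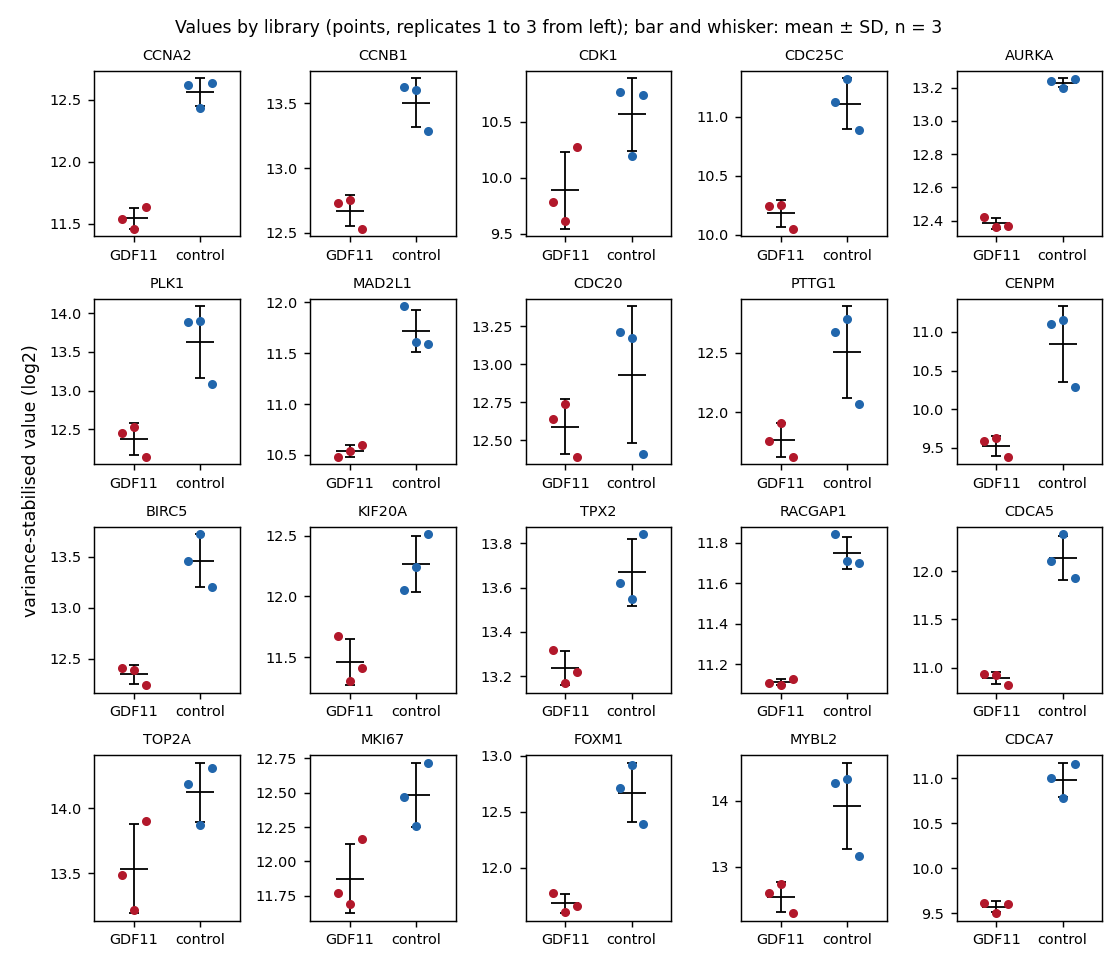
Variance-stabilised log2 values (y axis, a separate range in each panel) of 20 of the 58 genes in GDF11 and control libraries; points are replicates 1 to 3 from left to right, and the bar and whiskers are mean ± SD, n = 3. In CDCA7, MAD2L1, AURKA and CCNA2 the groups lie well apart, and in MYBL2, PLK1, CENPM and CDC20 control replicate 3 lies below the other controls.

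Of the 6 kinesins, 3 fell. KIF20A, a motor of the midzone and of cytokinesis, read 11.67, 11.30 and 11.41 with GDF11, against 12.05, 12.24 and 12.51 in controls and fell by 0.81 ± 0.17 (adjusted p = 0.0114). KIF2C, which takes microtubules apart at centromeres, read 11.24, 11.14 and 11.17 with GDF11, against 11.66, 11.98 and 12.01 in controls and fell by 0.70 ± 0.15 (adjusted p = 0.0117). KIF11, the motor that pushes spindle poles apart, had 10.44, 10.18 and 10.72 with GDF11, against 11.24, 10.85 and 11.28 in controls and fell by 0.68 ± 0.19 (adjusted p = 0.0345). The chromosome motor KIF4A had 11.05, 10.82 and 11.13 with GDF11, against 11.48, 11.24 and 11.70 in controls and was not called (-0.47 ± 0.17, adjusted p = 0.0772). Neither were KIF23 of the centralspindlin complex (-0.47 ± 0.18, adjusted p = 0.0947) nor KIF18A, which damps chromosome movements (-0.36 ± 0.15, adjusted p = 0.11). In all 6 kinesins, called or not, every GDF11 value lay below every control value. Among the spindle proteins HMMR, which binds hyaluronan and microtubules, stood at 10.84, 10.88 and 11.06 with GDF11, against 12.15, 11.76 and 11.37 in controls and fell by 0.83 ± 0.20 (adjusted p = 0.0196). NUSAP1, a microtubule-bundling protein, stood at 10.90, 10.38 and 10.80 with GDF11, against 11.28, 11.15 and 11.55 in controls and fell by 0.64 ± 0.19 (adjusted p = 0.0392). TPX2, the activator of AURKA, was at 13.32, 13.17 and 13.22 with GDF11, against 13.62, 13.55 and 13.84 in controls, without overlap, and was not called (-0.43 ± 0.15, adjusted p = 0.0686). ASPM, a protein of spindle poles, gave 9.90, 9.57 and 10.03 with GDF11, against 10.33, 10.01 and 10.52 in controls (-0.45 ± 0.19, adjusted p = 0.118), and the groups overlapped, as they did in DLGAP5 (-0.36 ± 0.18, adjusted p = 0.174), which binds kinetochore fibres. KIF11 (-0.67), HMMR (-0.79) and NUSAP1 (-0.74) lost the call after removal of GDF11 replicate 1, KIF11 (-0.54), KIF20A (-0.73), KIF2C (-0.68), HMMR (-0.81) and NUSAP1 (-0.48) after removal of GDF11 replicate 2, KIF2C (-0.69) and NUSAP1 (-0.69) after removal of GDF11 replicate 3, KIF11 (-0.62), HMMR (-0.64) and NUSAP1 (-0.66) after removal of control replicate 1 and HMMR (-0.83) and NUSAP1 (-0.73) after removal of control replicate 2. TPX2 (-0.35) gained a call after removal of control replicate 3. KIF20A (-0.91, adjusted p = 0.0575), KIF2C (-0.73, adjusted p = 0.0652), HMMR (-0.61, adjusted p = 0.255) and NUSAP1 (-0.85, adjusted p = 0.0847) were not called under the RIN covariate. KIF23 (-0.83, adjusted p = 0.0459) and KIF4A (-0.78, adjusted p = 0.0497) were called under it.

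Genes of cytokinesis had the smallest share of calls, 1 of 4. RACGAP1, a GTPase-activating protein of centralspindlin, had 11.11, 11.10 and 11.13 with GDF11, against 11.84, 11.71 and 11.70 in controls, with the GDF11 replicates close together, and fell by 0.63 ± 0.13 (adjusted p = 0.0103). ANLN, for the ring scaffold anillin, gave 11.14, 10.84 and 11.32 with GDF11, against 11.72, 11.35 and 11.88 in controls and was not called (-0.55 ± 0.19, adjusted p = 0.0709). PRC1, which bundles microtubules of the midzone, gave 11.65, 11.47 and 11.65 with GDF11, against 11.69, 11.69 and 12.21 in controls (-0.27 ± 0.18, adjusted p = 0.305). In ECT2, the exchange factor that switches on RhoA at the cleavage site, the groups overlapped widely, at 10.88, 10.34 and 11.18 with GDF11, against 11.41, 10.55 and 11.06 in controls (-0.20 ± 0.27, adjusted p = 0.621). Without GDF11 replicate 2 the ECT2 difference was 0.03. RACGAP1 (-0.63) lost the call after removal of GDF11 replicate 1 and RACGAP1 (-0.63) after removal of GDF11 replicate 2. ANLN (-0.70) gained a call after removal of control replicate 2. RACGAP1 (-0.62, adjusted p = 0.0555) was not called under the RIN covariate. ANLN (-0.93, adjusted p = 0.0428) was called under it.

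Among genes of chromosome condensation and cohesion, 4 of 7 fell. CDCA5, which encodes sororin, the protein that keeps sister chromatids together, stood at 10.93, 10.92 and 10.82 with GDF11, against 12.10, 12.38 and 11.93 in controls and fell by 1.25 ± 0.16 (adjusted p = 0.0008), to 0.406 times the control on reads. CDCA2, for a subunit that brings phosphatase 1 to chromatin, stood at 9.68, 9.14 and 9.43 with GDF11, against 10.35, 9.86 and 10.27 in controls and fell by 0.74 ± 0.20 (adjusted p = 0.027). The condensin subunit gene NCAPH had 10.67, 10.60 and 10.64 with GDF11, against 11.10, 11.03 and 11.50 in controls and fell by 0.57 ± 0.16 (adjusted p = 0.0358). MKI67, for the proliferation marker Ki-67 of the chromosome surface, had 11.77, 11.69 and 12.16 with GDF11, against 12.47, 12.26 and 12.72 in controls, with GDF11 replicate 3 just below the lowest control, and fell by 0.61 ± 0.19 (adjusted p = 0.0442). TOP2A, for the topoisomerase that untangles sister chromatids, had 13.49, 13.22 and 13.90 with GDF11, against 14.19, 13.87 and 14.31 in controls. GDF11 replicate 3 lay just above control replicate 2, and TOP2A was not called (-0.59 ± 0.21, adjusted p = 0.0753). The condensin genes NCAPG (-0.59 ± 0.20, adjusted p = 0.0679) and SMC2 (-0.23 ± 0.23, adjusted p = 0.488) also overlapped between the groups. NCAPH (-0.59) and MKI67 (-0.56) lost the call after removal of GDF11 replicate 1, NCAPH (-0.56), MKI67 (-0.52) and CDCA2 (-0.60) after removal of GDF11 replicate 2, NCAPH (-0.57) and CDCA2 (-0.75) after removal of GDF11 replicate 3 and NCAPH (-0.63), MKI67 (-0.62) and CDCA2 (-0.65) after removal of control replicate 1. NCAPG (-0.78) gained a call after removal of control replicate 2. CDCA2 (-0.86, adjusted p = 0.121) was not called under the RIN covariate. NCAPG (-1.12, adjusted p = 0.0121) and TOP2A (-1.0, adjusted p = 0.0414) were called under it.

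Both transcription factors of the G2 wave fell. MYBL2 (chromosome 20, 43667114 to 43716482), which encodes B-Myb, stood at 12.60, 12.73 and 12.29 with GDF11, against 14.27, 14.33 and 13.16 in controls. Control replicate 3 lay far below the other controls but above every GDF11 library, and MYBL2 fell by 1.38 ± 0.30 (adjusted p = 0.0121). Without control replicate 3 the difference of MYBL2 was -1.76. FOXM1 stood at 11.78, 11.61 and 11.66 with GDF11, against 12.71, 12.92 and 12.39 in controls and fell by 0.99 ± 0.17 (adjusted p = 0.00396), to 0.493 times the control on reads. The remaining genes, named for their association with the cell division cycle, all fell. CDCA7 (chromosome 2, 173354872 to 173368997), a MYC- and E2F-responsive partner of the chromatin remodeller HELLS, had 9.61, 9.50 and 9.60 with GDF11, against 11.00, 10.78 and 11.16 in controls and fell by 1.41 ± 0.15 (adjusted p = 0.000344), to 0.346 times the control on reads. Control replicate 3 was here the highest control. CDCA3, an F-box-like protein linked to the destruction of WEE1, had 9.44, 9.45 and 9.31 with GDF11, against 10.39, 10.72 and 10.15 in controls and fell by 1.02 ± 0.18 (adjusted p = 0.00381). CDCA4 had 10.11, 10.10 and 9.92 with GDF11, against 10.53, 10.82 and 10.83 in controls and fell by 0.68 ± 0.15 (adjusted p = 0.0134). CDCA4 (-0.71) lost the call after removal of GDF11 replicate 1, CDCA4 (-0.62) after removal of GDF11 replicate 3 and MYBL2 (-1.20) after removal of control replicate 1. FOXM1 (-0.61, adjusted p = 0.0659), MYBL2 (-0.48, adjusted p = 0.327), CDCA3 (-0.63, adjusted p = 0.083) and CDCA4 (-0.65, adjusted p = 0.104) were not called under the RIN covariate.

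In the mitotic genes, control replicate 3 differed from its group in both directions. It lay below both other controls in 24 of the 58 genes, above both in 25 and between them in 9. The mean deviation of the 58 from each gene's mean over the 6 libraries was -0.31, -0.43 and -0.33 with GDF11, against 0.39, 0.32 and 0.36 in controls. Averaged over the list, control replicate 3 thus stood with the other controls. Its mean by role departed from both in some groups and not in others. For the exit genes its mean deviation was -0.03 against 0.46 and 0.58 in control replicates 1 and 2. For the CDC25 phosphatases it was 0.12 against 0.59 and 0.74, and for the transcription factors 0.07 against 0.79 and 0.92. For the kinesins it was 0.48 against 0.23 and 0.16. For the mitotic kinases it was 0.38 against 0.32 and 0.34, for the passenger complex 0.40 against 0.36 and 0.57, and for the other CDCA genes 0.52 against 0.45 and 0.58. Such means can hold genes that differ in opposite directions. Among the mitotic kinases, control replicate 3 minus the mean of the other controls was -0.81 in PLK1 and -0.70 in AURKB. It was 0.65 in PLK4 and 0.52 in BUB1B. The difference of control replicate 3 from the mean of the other controls went with the GC content of the longest annotated transcript (Pearson r = -0.62, Spearman rho = -0.53 over the 58 genes; -0.41 and -0.43 over 18557 tested genes with a GC value). These correlations run across genes that share the same libraries, and no p is given. Of the 29 genes with a GC content under 45%, 13 were called lower, with a median difference of -0.59, or -0.49 without control replicate 3. Of the 29 at or above 45%, 25 were called lower, with a median of -0.85, or -0.92 without that library. The share called in these GC ranges over all tested genes was not counted. GC content went with the GDF11 difference at Pearson r = -0.51 and Spearman rho = -0.52 over the 58 genes. Over all tested genes with a GC value these were -0.1 and -0.15. The part of GC content in these differences was not tested.

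**Figure D3:**
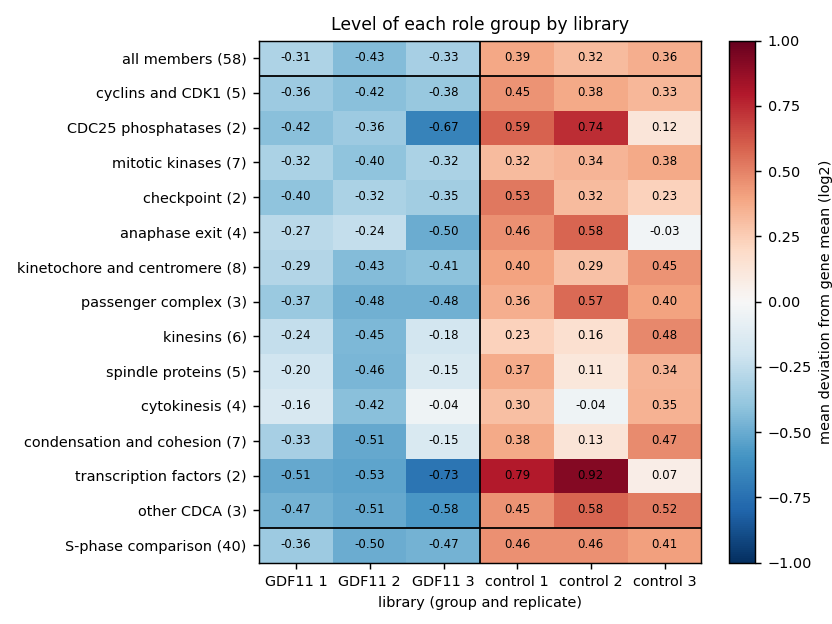
Mean deviation from each gene's mean over the 6 libraries (colour and printed value, log2) for all 58 genes, for each role group and for 40 S-phase genes (rows, number of genes in brackets) in each library (columns). GDF11 libraries are negative in every row, and control replicate 3 is near 0 for the anaphase exit genes and the transcription factors.

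**Figure D4:**
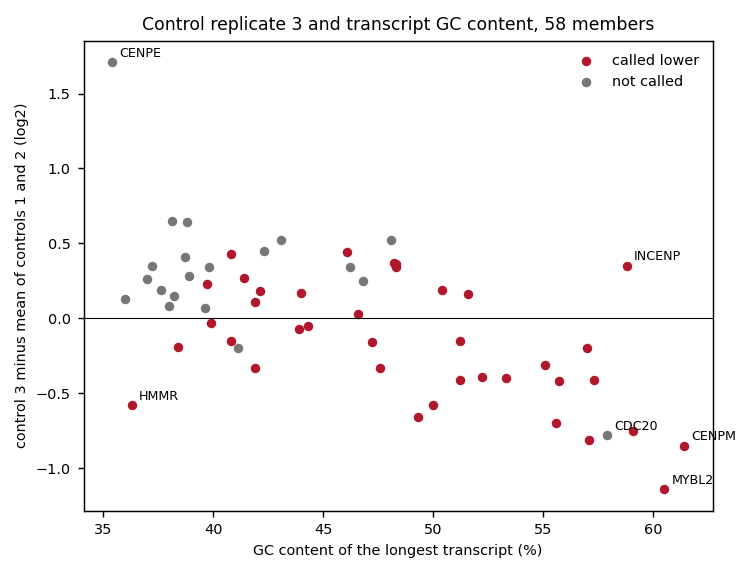
Control replicate 3 minus the mean of control replicates 1 and 2 (y axis, log2) against GC content of the longest transcript (x axis, percent) for the 58 genes, red where called lower with GDF11 and grey where not called. Genes of low GC content, such as CENPE, tend to lie above 0 and genes of high GC content, such as MYBL2 and CENPM, below it, with INCENP and HMMR as exceptions.

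Other genes of the same pathway and of its control, 129 in 6 lists, were set beside them and are called other mitotic genes below. Not all of them act in mitosis: the lists include CDC25A, E2F1, E2F2 and PLK3, whose roles are given below. Of 128 tested, 48 fell, 3 rose and 77 were not called, with a median difference of -0.40. Removal of control replicate 1 left 26 called lower and 1 higher, of GDF11 replicate 1 left 25 and 1, of GDF11 replicate 2 left 23 and 3, and of GDF11 replicate 3 left 28 and 1. The RIN covariate left 24 lower and 1 higher. Removal of control replicate 2 gave 36 and 1, and of control replicate 3, 63 and 6. Further G2/M kinases and regulators had 12 of 17 tested genes lower and 0 higher, 0 also at an unadjusted p under 0.05 (median -0.71). CDC25A, the phosphatase of the G1/S step, fell by 1.43 ± 0.16 (adjusted p = 0.000432), the checkpoint kinase genes CHEK1 and CHEK2 fell by 1.13 ± 0.19 and 0.99 ± 0.16 (adjusted p = 0.0034 and adjusted p = 0.00266), and the kinase gene PBK fell by 1.06 ± 0.14 (adjusted p = 0.00105). CCNB3 stood near the lowest value and was not tested. Other kinetochore and checkpoint genes had 16 of 32 lower and 0 higher, 0 also at an unadjusted p under 0.05 (median -0.52), led by MIS18A (-1.09 ± 0.16, adjusted p = 0.00177), CENPP (-0.98 ± 0.16, adjusted p = 0.00271), SKA3 (-0.83 ± 0.13, adjusted p = 0.00283) and ZWINT (-0.93 ± 0.16, adjusted p = 0.0042). MIS18A is needed to load CENPA, and SKA3 and ZWINT act at the outer kinetochore. The G2/M list had 9 to 12 lower over the fits without 1 library and 5 with the RIN covariate, and the kinetochore list had 6 to 19 lower over the fits without 1 library and 9 with the RIN covariate. CHEK2 (-0.72, adjusted p = 0.0517), CENPP (-0.75, adjusted p = 0.066) and ZWINT (-0.59, adjusted p = 0.0705) were not called under the RIN covariate.

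The next lists had smaller shares of calls. Among subunits and co-activators of the anaphase-promoting complex, 2 of 17 fell and 0 rose, 0 also at an unadjusted p under 0.05 (median -0.26), close to the 10.8% of all tested genes. These were FBXO5, the inhibitor EMI1 (-0.66 ± 0.16, adjusted p = 0.0176), and ANAPC5 (-0.48 ± 0.14, adjusted p = 0.0372). ANAPC13 (-0.40 ± 0.14, adjusted p = 0.0681) and ANAPC15 (-0.62 ± 0.22, adjusted p = 0.0724) came next and were not called. The list had 0 to 8 lower over the fits without 1 library and 1 with the RIN covariate. FBXO5 (-0.64) and ANAPC5 (-0.48) lost the call after removal of GDF11 replicate 1, FBXO5 (-0.61) and ANAPC5 (-0.52) after removal of GDF11 replicate 2, ANAPC5 (-0.43) after removal of GDF11 replicate 3, FBXO5 (-0.58) and ANAPC5 (-0.50) after removal of control replicate 1 and ANAPC5 (-0.45) after removal of control replicate 2. ANAPC13 (-0.40) and ANAPC15 (-0.88) gained a call after removal of control replicate 3. ANAPC5 (-0.41, adjusted p = 0.177) was not called under the RIN covariate. Of cohesin and other condensin genes 3 of 17 fell and 0 rose, with 1 higher at an unadjusted p under 0.05 (median -0.18). The share lower was 17.6%, against 10.8% of all tested genes. Those that fell were the condensin subunit genes NCAPH2 (-1.07 ± 0.24, adjusted p = 0.0134) and NCAPD2 (-0.74 ± 0.18, adjusted p = 0.0213) and SGO1, for the protector of centromeric cohesin shugoshin (-0.61 ± 0.15, adjusted p = 0.0202). The cohesin release factor gene WAPL had a positive difference and was not called (0.64 ± 0.22, adjusted p = 0.0664). The cohesin and condensin list had 1 to 3 lower and 0 to 1 higher over the fits without 1 library, and 0 lower and 0 higher with the RIN covariate. SGO1 (-0.66) and NCAPD2 (-0.82) lost the call after removal of GDF11 replicate 1, SGO1 (-0.51) and NCAPD2 (-0.74) after removal of GDF11 replicate 2, NCAPH2 (-0.94) and NCAPD2 (-0.65) after removal of GDF11 replicate 3, NCAPH2 (-0.96) and SGO1 (-0.62) after removal of control replicate 1 and NCAPH2 (-0.93) and NCAPD2 (-0.58) after removal of control replicate 2. WAPL (0.84) gained a call after removal of control replicate 3. NCAPH2 (-0.47, adjusted p = 0.328), SGO1 (-0.69, adjusted p = 0.0969) and NCAPD2 (-0.42, adjusted p = 0.302) were not called under the RIN covariate. Further kinesin and spindle genes had 10 of 28 lower and 2 higher (median -0.29). KIF22 (-1.29 ± 0.19, adjusted p = 0.00162), KIF15 (-0.99 ± 0.16, adjusted p = 0.00263) and FAM83D (-0.78 ± 0.14, adjusted p = 0.00537) fell, and PLK3, a stress-responsive kinase of the Polo family, rose by 0.84 ± 0.16 (adjusted p = 0.0058). The other gene that rose in that list was CKAP2L (0.71 ± 0.22, adjusted p = 0.0472), a spindle protein gene named after its value was seen. Calls in this list numbered 4 to 13 lower and 1 to 3 higher over the fits without 1 library, and 5 lower and 1 higher with the RIN covariate. CKAP2L (0.77) lost the call after removal of GDF11 replicate 1, CKAP2L (0.81) after removal of GDF11 replicate 2, CKAP2L (0.55) after removal of GDF11 replicate 3, CKAP2L (0.51) after removal of control replicate 1 and CKAP2L (0.77) after removal of control replicate 2. CKAP2L (0.36, adjusted p = 0.543) was not called under the RIN covariate. PLK3 was called under that covariate as well (1.12, adjusted p = 0.00838).

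Of the DREAM/MuvB and RB family list 5 of 17 fell and 1 rose (median -0.49). E2F2 (-1.46 ± 0.16, adjusted p = 0.00039) and E2F1 (-1.37 ± 0.22, adjusted p = 0.00282), activators of S-phase genes, and their partners TFDP1 (-0.65 ± 0.14, adjusted p = 0.0106) and TFDP2 (-0.78 ± 0.19, adjusted p = 0.0175) fell. E2F3, named after its value was seen, was the gene that rose (0.93 ± 0.24, adjusted p = 0.0243). This list gave 2 to 8 lower and 0 to 2 higher over the fits without 1 library, and 4 lower and 0 higher with the RIN covariate. TFDP1 (-0.68) and E2F3 (0.99) lost the call after removal of GDF11 replicate 1, TFDP1 (-0.63) and TFDP2 (-0.61) after removal of GDF11 replicate 2, TFDP1 (-0.65) and E2F3 (0.80) after removal of GDF11 replicate 3, TFDP2 (-0.68) and E2F3 (0.88) after removal of control replicate 1 and E2F3 (0.73) after removal of control replicate 2. E2F1 (-0.75, adjusted p = 0.0545), TFDP1 (-0.61, adjusted p = 0.0699), TFDP2 (-0.82, adjusted p = 0.115) and E2F3 (0.21, adjusted p = 0.596) were not called under the RIN covariate. As a comparison with the other large programme of the cell cycle, 34 of 40 genes of DNA replication and S phase fell and 0 rose, 0 also at an unadjusted p under 0.05. The median was -0.68 for the 58 mitotic genes and -0.92 for the S-phase genes. There were 24 to 34 lower over the fits without 1 library and 23 with the RIN covariate. Among the S-phase genes with the lowest p were RFC3 (-1.15 ± 0.14, adjusted p = 0.000559), MCM2 (-1.43 ± 0.19, adjusted p = 0.001) and POLE2 (-1.20 ± 0.16, adjusted p = 0.00116). The difference between these lists was not tested, and the lists were drawn up with earlier results of these data known.

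**Figure D5:**
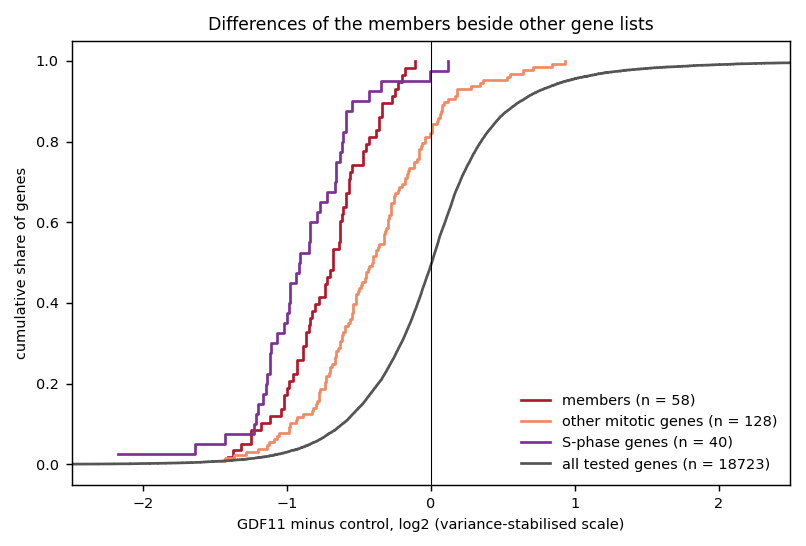
Cumulative share of genes (y axis) by log2 difference of GDF11 minus control (x axis) for the 58 mitotic genes, 128 other mitotic genes, 40 S-phase genes and all 18723 tested genes. The curve of the 58 lies wholly left of 0, with a median of -0.68 beside -0.40, -0.92 and 0.01 in the other groups.

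The promoter letters and the calls were also set beside each other. Of the 37 genes with CHR letters in at least 1 window, 20 were called lower, with a median difference of -0.62. Of the 11 with windows but no CHR letters, 10 were called lower, with a median of -0.84. These were AURKB, CCNA2, CCNB1, CDCA7, KIF20A, KIF2C, MYBL2, NCAPH, PTTG1 and SPC24, and CENPE was the one not called. Where these letters are absent from a window nothing follows about the factors that bind the gene.

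The labelled cell line was set against its markers. All 13 hepatocyte markers were detected, up to 19.56, with a summed 1439418 to 1589845 normalised reads with GDF11 and 1844155 to 2506307 in controls. Of these, 8 fell with GDF11 and 0 rose, 0 also at an unadjusted p under 0.05, with 5 to 11 lower over the fits without 1 library and 6 with the RIN covariate. Of 14 markers of other cell types 13 were matched, with a summed 13056 to 15091 reads with GDF11 and 14208 to 16939 in controls. PTPRC and CD3E stood at the lowest value in all 6 libraries, and 2 markers rose (KRT7 and PDGFRB) and 2 fell (VWF and SOX9). KRT7 and VWF rest on few reads: KRT7 averaged 56.4 with GDF11 and 14.3 in controls, and VWF 7.1 with GDF11 and 50.6 in controls. Other markers of this list were well above the lowest value. SOX9 averaged 4468.7 reads with GDF11 and 6556.6 in controls, and EPCAM 4422.5 with GDF11 and 4183.6 in controls. CD68 averaged 2784.0 with GDF11 and 2907.5 in controls, and PDGFRB 2172.4 with GDF11 and 1135.9 in controls. PDGFRB (0.80) and SOX9 (-0.53) lost the call after removal of GDF11 replicate 1, PDGFRB (0.96), KRT7 (0.54) and SOX9 (-0.48) after removal of GDF11 replicate 2, KRT7 (0.73) and SOX9 (-0.62) after removal of GDF11 replicate 3, PDGFRB (0.67) and SOX9 (-0.61) after removal of control replicate 1 and PDGFRB (0.97), KRT7 (0.62) and SOX9 (-0.56) after removal of control replicate 2. PDGFRB (0.80, adjusted p = 0.229), KRT7 (0.52, adjusted p = 0.317) and VWF (-0.59, adjusted p = 0.127) were not called under the RIN covariate. The part of these markers in the mitotic genes was not tested.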

How the data were processed

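Total RNA of 6 HepG2 cultures was sequenced from directional libraries made from 250 ng of RNA, per the labels' protocols. The authors deposited 1 table of variance-stabilised log2 values. The tools in the submitters' processing notes are DESeq2, Salmon 1.2.1 and Trimmomatic with GRCh38, the labels' protocols name STAR 2.6 and hg19, and the route to the table was not given in the sources. Low values are compressed: the share of a log2 change that survives is 0.696 at a value of 8, 0.914 at 10 and 0.978 at 12. Reads were back-transformed from the lowest value of the curve. Since 71.0% to 74.2% of the low values (up to 20 reads) were whole within 0.01, whole reads could not be had and a count test was left out. The estimated depth is the sum of these reads over the step of 1 read, and precision is given by the spread of 3 libraries a group.

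Genes with a mean at least 0.5 above the lowest value entered the test (18723), which was that of limma 3.58.1 under R 4.3.3 (eBayes with a mean trend, two-sided, no covariate), Benjamini-Hochberg adjustment over all of them and a threshold of 0.05. The code was checked on simulated data. Symbols were matched for 58349 of 60240 IDs, with PECAM1 unmatched. Gene positions are those of the GRCh38.p14 RefSeq table, and GC content is that of the longest transcript in a GRCh37 annotation. The members and lists were chosen with earlier results of these data known. Values in all 6 libraries were set by a rule: up to 4 members a role with the lowest p, the 5 largest changes in each direction and 10 set members. Since no member had a positive difference, the second direction held the smallest falls. Among these, CENPE is given only as a range and SMC2 without library values. TTK and BUB1B are given in full outside the rule. Of each further list up to 4 genes with the lowest p were named, with their difference and SE, of which 1 is not reported here. The alternatives were other filters, scalings, thresholds and a robust prior, weights for libraries, RIN or the replicate number in the model, and removal of each library.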

Additional observations from a re-analysis of the deposited data

How the results depend on the processing

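The number of the 58 mitotic genes called higher was 0 under each of the 17 alternatives, and 38 were lower as reported. With the RNA integrity covariate 22 were lower, at a threshold of 0.01 17, and over the fits without 1 library 23 to 41. Their median was -0.74 with median centring. Of the 38, 9 were called under each of the 17 alternatives (CCNA2, AURKA, MAD2L1, SPC25, CENPA, BIRC5, CDCA8, CDCA5 and CDCA7). The count of all genes called, higher and lower, was 9027 with library weights, 1870 with the RNA integrity covariate, 6453 with the replicate block, 1961 at 0.01 and 2398 to 7640 without 1 library, against 4202. Of the other mitotic genes, 74 were lower and 7 higher with library weights, 24 and 1 with the RNA integrity covariate, 20 and 1 at 0.01, and 23 to 63 lower and 1 to 6 higher without 1 library; 5 were higher with the block. The sign turned for PLK4 (0.12) and CENPE (0.10) with library weights and for CDC20 (0.27) with the RNA integrity covariate, and without 1 library PLK4 ranged over -0.32 to 0.11, CENPE over -0.55 to 0.39 and ECT2 over -0.43 to 0.03. The cause of these shifts was not tested. With the replicate number as a block 47 of the 58 were lower. Same-numbered libraries correlated at -0.09, 0.38 and 0.48 in their deviations from the group means, for replicates 1, 2 and 3. Pairs of unlike number ran from -0.47 to 0.25. The value of -0.47 was that of GDF11 replicate 2 with control replicate 3 and of GDF11 replicate 3 with control replicate 2. Whether the numbers pair the libraries was not tested. Small differences are limited by 3 libraries a group. The scale compresses changes most in CENPE, KIF18A and PLK4, followed by NUF2 (mean 8.89 with GDF11 and 9.51 in controls). Called genes at low values, such as CENPA (mean 9.37 with GDF11), are compressed as well, since 0.835 of a change survives at a value of 9.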

Other observations

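Set per kilobase of the longest annotated transcript, an approximate length, the 5 genes of the list with the highest control means of normalised reads were MYBL2, CCNB1, PTTG1, CDC20 and AURKA. MYBL2 had 2184 reads per kilobase with GDF11 and 6066 in controls, CCNB1 3176 with GDF11 and 5724 in controls, and PTTG1 3178 with GDF11 and 5481 in controls. CDC20 had 3436 with GDF11 and 4487 in controls, and AURKA 2338 with GDF11 and 4232 in controls. The lowest was CENPE, with 35.9 with GDF11 and 50.6 in controls, next to KIF18A (76.4 with GDF11 and 104.5 in controls), ASPM (74.9 with GDF11 and 105.5 in controls) and PLK4 (110.4 with GDF11 and 123.5 in controls).

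The SD was smaller with GDF11 than in controls in 45 of the 58 genes, with a median SD of 0.140 with GDF11 and 0.235 in controls (n = 3 each). These genes share the same libraries, and the share over all tested genes was not counted. Library weights estimated over all tested genes ran from 0.22 for control replicate 3 to 2.98 for GDF11 replicate 1. Within the GDF11 group the difference of replicate 3 from the mean of replicates 1 and 2 went with transcript GC content (Pearson r = -0.67 over the 58 genes and -0.41 over all tested genes with a GC value, across genes of the same libraries). The 38 genes called had a median GC content of 48.3% and a median longest transcript of 2986 bases, and the 20 not called 38.8% and 3962 bases.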
